A study of Rattus norvegicus with 8 samples.

Results

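The genes described here are the subunits of inhibin and activin (Inha, Inhba and Inhbb), their binding protein follistatin (Fst), anti-Müllerian hormone (Amh), and 5 genes used as markers of Sertoli cells, Sox9, Wt1, Fshr, Clu and Tsx. They were chosen by name, and every probe that the array names after one of them was taken, which gave 10 genes with 16 probes of the 41012 on the array. Tsx was included because of its large fall at 10 µM, so its values at that dose are described without a test, and Inha was singled out by the study on these same testes. Expression was measured in explanted fetal testes of Sprague-Dawley rats kept 72 h in culture with mono(2-ethylhexyl) phthalate (MEHP), the active metabolite of the plasticizer di(2-ethylhexyl) phthalate, or with vehicle (DMSO). There were 3 single testes at 10 µM and 1 single testis at 1 µM. Each was hybridized on 2 two-colour arrays against the same RNA pool from 3 vehicle-treated testes, so the pool is 1 control sample, its own spread is not measured, and both doses share it. Values are log2 ratios of MEHP over vehicle, averaged over the 2 hybridizations of a testis, and a ratio of −1 is a halving.

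The labels place MEHP on the green dye (Cy3) on all 8 arrays, while the methods describe an exchange of dyes between the arrays of a testis without naming the array. MEHP was therefore taken as green on the first hybridization and red (Cy5) on the repeat, and the red over green ratios of the 2 arrays of a testis correlated negatively across probes (Pearson r between −0.82 and −0.49, over 3785 probes that are not independent replicates). The direction of every ratio is likely but not settled by this, and with the opposite assignment every sign below would turn. Testis 2 at 10 µM stood apart from the other testes. Its MEHP channel was well above background on 0.249% and 1.54% of spots in its 2 hybridizations, against 7.8% to 29.8% on the other 6 arrays. Its ratios were shifted downward as a whole. The median of all probes tested at 10 µM was −1.13 in testis 2, against 0.09 in testis 1 and −0.20 in testis 3. Main results at 10 µM are therefore also given without testis 2. Testes 1 and 2 were on 1 slide, and testis 3 and the 1 µM testis on another. Whole testes were extracted, so that fewer Sertoli cells and less RNA per Sertoli cell cannot be told apart.

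Inhibins and activins are dimers built from shared subunits. An alpha subunit paired with a beta subunit forms inhibin, 2 beta subunits form activin, and follistatin binds activin and keeps it from its receptors. In the fetal testis Sertoli cells make inhibin B and anti-Müllerian hormone, the signal for regression of the Müllerian ducts, and the transcription factor SOX9 directs the differentiation of these cells and activates Amh. Inha is not particular to Sertoli cells, since fetal Leydig cells express it too.

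Transcripts of 5 of these genes were measured on every array in the vehicle pool. Of the 16 probes, those of Inha, Amh and Tsx, 1 of the 3 Inhbb probes and 1 of the 4 Sox9 probes were well above background in the vehicle channel on 8 of 8 arrays. The Wt1 probe was so on 2 of 8 arrays and the Fshr probe on 0 of 8, so neither the tumour suppressor WT1 nor the receptor for follicle-stimulating hormone was measured reliably. At 10 µM, 9 probes of 7 genes could be tested without Tsx, and 0 of them passed an adjusted p of 0.05 in limma, against a background of 2.24% over the 9913 probes tested (1.87% lower than the pool), while 3 had an unadjusted p under 0.05. All 3 testes lay below 0 for 4 of these 9 probes, against 36.2% of all tested probes, and all 6 hybridizations for 3 of them, against 19.3%. The median of the 9 probes was −0.11 and that of all tested probes −0.42.

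**Figure D1:**
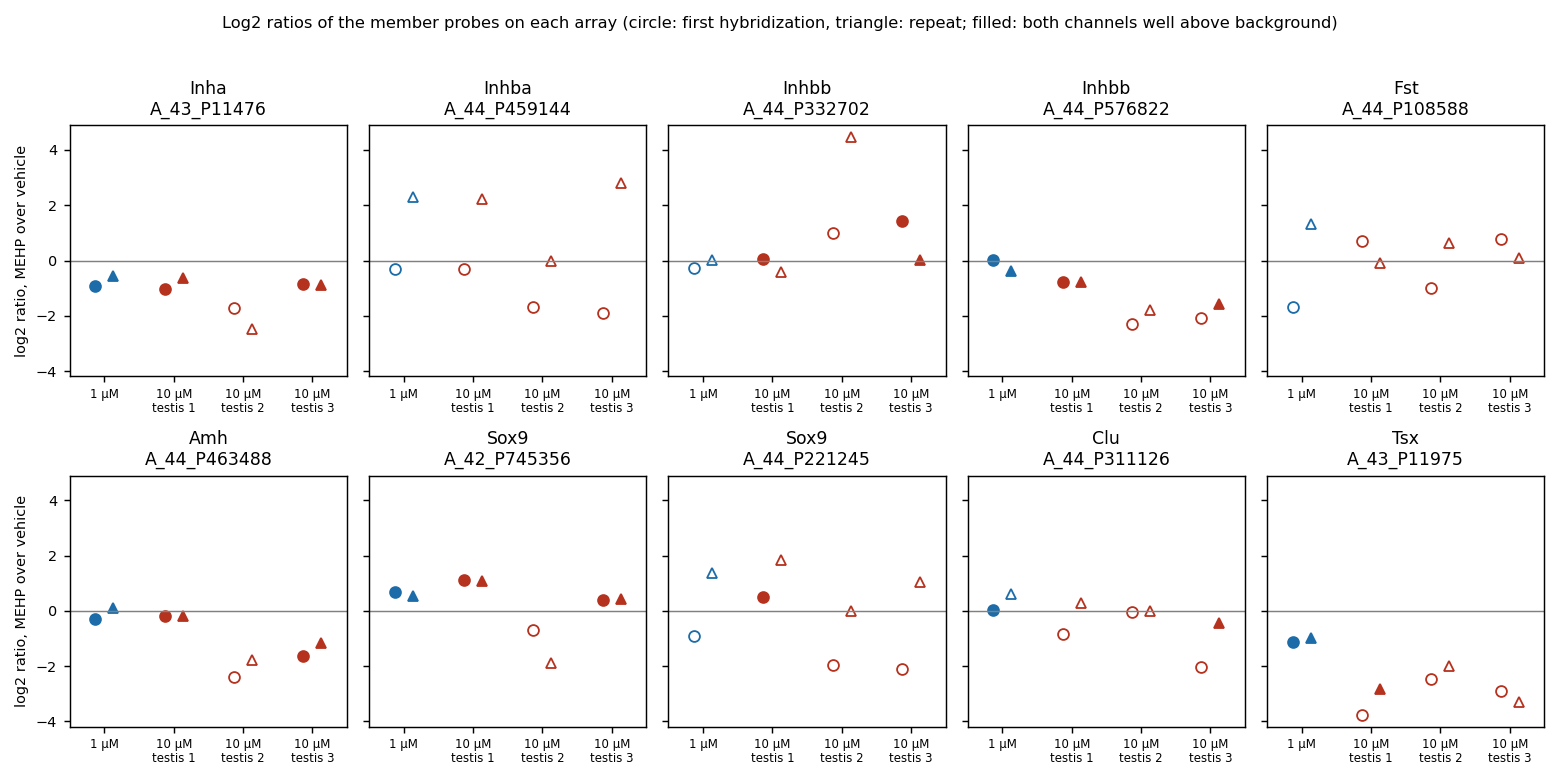
Log2 ratio of MEHP over vehicle (y axis) for the 9 tested probes and Tsx on each of 8 arrays, by testis (x axis). Inha and Tsx lay below 0 on all 8 arrays, Sox9 A_42_P745356 lay above 0 in every testis except testis 2, and Inhba lay below 0 in the 4 first hybridizations and above 0 in 3 of the 4 repeats.

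By the deposited ratios, Inha, which encodes the inhibin alpha subunit, was lower in MEHP-treated than in control testes on every array. At 10 µM, testes 1 to 3 had ratios of −0.83, −2.09 and −0.86. Testes 1 and 3 lay close together and testis 2 lower, as it did for the median of all tested probes. The mean of Inha was −1.26 ± 0.72 (SD, n = 3), which is 2.4-fold lower, and did not pass the adjusted threshold (limma, adjusted p = 0.2, unadjusted p = 0.0252). Without testis 2 the mean was −0.85 (limma, adjusted p = 0.0996). MEHP-channel Inha was measurable, that is well above background, on 4 of the 6 arrays at 10 µM, those of testes 1 and 3, and on the pair at 1 µM. Across these 6 arrays with both channels measured, the ratio lay between −1.04 and −0.56. The hybridizations at 1 µM read −0.91 and −0.56, close to testes 1 and 3 at the higher dose. The difference between 10 µM and 1 µM was −0.53 (limma fit of the 4 testes, unadjusted p = 0.528, adjusted p = 0.998), and −0.13 within the slide that held testis 3 and the 1 µM testis.

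Inhbb encodes the beta B subunit, which pairs with the alpha subunit in inhibin B. Its probe A_44_P576822 read −0.77, −2.05 and −1.82 in testes 1 to 3 at 10 µM. All 6 hybridizations were below 0, and the mean was −1.55 ± 0.69 (SD, n = 3; limma, adjusted p = 0.106, unadjusted p = 0.00628), which is 2.92-fold lower. Without testis 2 its mean was −1.29. The probe was then alone among the 9 in passing the threshold (limma, adjusted p = 0.0353), where 17.3% of all tested probes passed. Measurable MEHP readings of this probe at 10 µM came from 3 of 6 hybridizations, both of testis 1 and the repeat of testis 3. Testis 2 had none, so its low ratio rests on dim MEHP readings. Both hybridizations at 1 µM were nearer to the control pool, at 0.01 and −0.40, so the lone testis at 1 µM lay above every testis at 10 µM. The difference between the doses was −1.36 (limma, unadjusted p = 0.139, adjusted p = 0.998), and within the shared slide it was −1.63. A second Inhbb probe, A_44_P332702, did not show the same pattern. It gave −0.17, 2.74 and 0.72 in testes 1 to 3, averaging 1.1 ± 1.49 (SD, n = 3; adjusted p = 0.293 in limma), and −0.27 and 0.02 in the 2 hybridizations at 1 µM. Its 10 µM mean fell to 0.28 without testis 2 (limma, adjusted p = 0.622). The red channel of this second probe was well above background on 8 of 8 arrays and its green channel on 3 of 8. The first probe was well above background in the vehicle pool on 8 of 8 arrays and the second on 5 of 8. The array design assigns them to different predicted transcripts of Inhbb, and the third probe of the gene was not above background in any channel.

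The other activin subunit gave ratios that followed the dye. Inhba, which encodes the beta A subunit, read −0.30, −1.69 and −1.91 in the first hybridizations of testes 1 to 3 and 2.22, 0 and 2.81 in the repeats. The same split appeared at 1 µM, with −0.31 and then 2.29. Its red channel was well above background on 7 of 8 arrays and its green channel on 0 of 8, whichever RNA the channel held. Averaged over the dyes the 10 µM mean came to 0.19 ± 0.93 (SD, n = 3; adjusted p = 0.906 in limma), and no level of Inhba in MEHP-treated testes was established. Follistatin was measured no better. Fst probe A_44_P108588 was well above background in red on 5 of 8 arrays and in green on 0 of 8. Its ratios were 0.31, −0.19 and 0.44 in testes 1 to 3, averaging 0.19 ± 0.33 (SD, n = 3; adjusted p = 0.906 in limma). The hybridizations of a testis differed without following the dye, with 0.71 and −0.09 in testis 1, −0.99 and 0.62 in testis 2, 0.78 and 0.11 in testis 3, and −1.69 and 1.30 at 1 µM. The other Fst probe was well above background in 1 channel of 1 array and was not tested at 10 µM.

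Amh was lower in testes 2 and 3 and close to the control pool in testis 1. The ratio was −0.19, −2.08 and −1.40 in testes 1 to 3, all 6 hybridizations at 10 µM were below 0, and the mean was −1.22 ± 0.96 (SD, n = 3; limma, adjusted p = 0.22, unadjusted p = 0.0303). Without testis 2 the mean was −0.80 (limma, adjusted p = 0.163). Testes 1 and 3 both had measurable MEHP signals of Amh on their 2 arrays, and testis 2 had none, so its low ratio rests on dim MEHP readings. Hybridizations at 1 µM read −0.31 and 0.09. Between the doses the difference was −1.11 (limma, unadjusted p = 0.28, adjusted p = 0.998) and −1.29 within the shared slide.

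The promoters of Inha and Amh are shown because these genes were measured in both channels on 6 of 8 arrays and their testis means lay below 0 at both doses. Each sequence holds the 250 bases before the RefSeq start in assembly GRCr8, read 5′ to 3′ on the gene's strand. Capitals mark matches on either strand, none of which overlap. The motif AGGTCA is the half-site recognised by nuclear receptors such as SF-1. Factors of the GATA family bind AGATAA. The motif TGCGTCA is the variant cyclic AMP response element known from inhibin alpha. Inha lies on chromosome 9, with its window at chr9:84442859-84443108 on the plus strand, and Amh on chromosome 7, with its window at chr7:9559868-9560117 on the minus strand.
Inha: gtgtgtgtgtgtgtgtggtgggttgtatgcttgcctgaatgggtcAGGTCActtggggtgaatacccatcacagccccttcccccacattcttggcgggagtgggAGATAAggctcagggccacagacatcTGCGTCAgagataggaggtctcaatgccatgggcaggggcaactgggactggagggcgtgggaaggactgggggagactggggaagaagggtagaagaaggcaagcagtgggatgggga
Amh: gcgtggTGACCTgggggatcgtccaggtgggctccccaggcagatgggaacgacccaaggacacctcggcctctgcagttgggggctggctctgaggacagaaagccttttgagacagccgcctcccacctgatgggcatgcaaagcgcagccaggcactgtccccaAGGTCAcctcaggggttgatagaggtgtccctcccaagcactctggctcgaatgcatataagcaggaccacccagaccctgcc
In Inha the matches began 205, 145 and 119 bases before the start. In Amh, AGGTCA was found on the opposite strand (printed as TGACCT) from base 244 before the start and on the gene's strand from base 83. AGGTCA was found in 14.1% of 33469 RefSeq promoter windows of this length, AGATAA in 10.3% and TGCGTCA in 1.66%. Promoters were found for 7 of the 10 genes, and none of the other 5 held any of these motifs or the consensus TGACGTCA, which 1.59% of all windows held.

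Sox9 lay on the other side of 0 from Amh in testes 1 and 3, a difference that was not tested. Probe A_42_P745356 read 1.1, −1.29 and 0.41 in testes 1 to 3, averaging 0.07 ± 1.23 (SD, n = 3; adjusted p = 0.97 in limma). On the 6 arrays on which both channels were well above background the ratio was above 0 each time, between 0.39 and 1.12, which included 0.69 and 0.55 at 1 µM. Both values below 0 were those of testis 2, whose MEHP signal was not well above background. Without testis 2 the mean was 0.75 (limma, adjusted p = 0.152). A second probe, A_44_P221245, was well above background in red on 7 of 8 arrays and in green on 1, and its sign changed with the dye in testis 3 and at 1 µM, so that its average of −0.11 ± 1.14 (SD, n = 3; adjusted p = 0.954 in limma) was not used to judge the first. The other Sox9 probes were not above background in any channel.

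**Figure D2:**
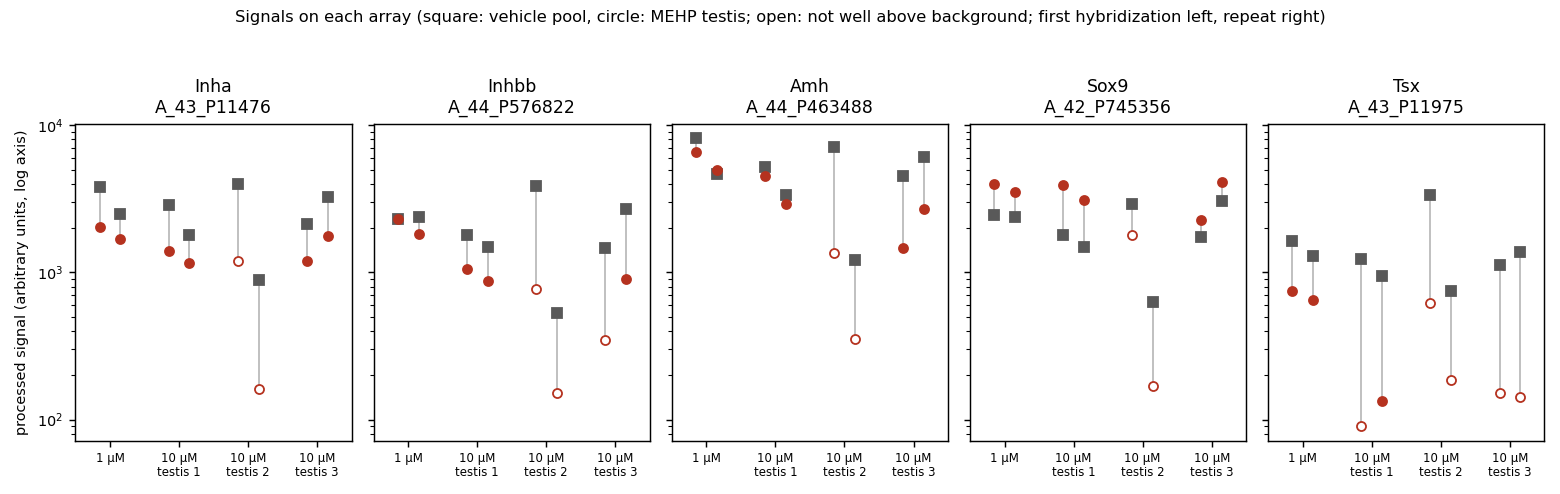
Processed signal (y axis, log scale, arbitrary units) of the vehicle pool and of the MEHP testis on each of 8 arrays, for the probes of Inha, Inhbb, Amh, Sox9 and Tsx that were well above background in the vehicle pool on 8 of 8 arrays. The MEHP signal of Tsx was well above background on 1 of 6 arrays at 10 µM and on both at 1 µM, and that of Sox9 exceeded the vehicle signal on 6 arrays.

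Clu, which encodes the secreted chaperone clusterin, gave −0.26, −0.02 and −1.23 in testes 1 to 3, averaging −0.51 ± 0.64 (SD, n = 3; adjusted p = 0.679 in limma). At 1 µM it gave 0.01 and 0.60. Only 2 of the 6 arrays at 10 µM had a measurable MEHP signal of Clu. Its red channel was well above background on 7 of 8 arrays and its green channel on 2 of 8. Wt1 and Fshr were too dim to be tested at 10 µM, with Wt1 ratios of 0.37, 0.09 and −0.82 in testes 1 to 3.

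Tsx, an X-linked gene expressed in the testis, had the lowest ratios of the 10 genes at 10 µM. They were −3.30, −2.23 and −3.09 in testes 1 to 3, averaging −2.87 ± 0.57 (SD, n = 3), or 7.31-fold lower, and no test is given because this fall was the reason for its choice. All 6 hybridizations were below 0, the lowest at −3.77. The vehicle signal was well above background on all 8 arrays and the MEHP signal on 1 of 6 at 10 µM, so the size of the fall rests on MEHP signals mostly not well above background. The choice of Tsx did not rest on 1 µM, but the ratios at both doses share the control pool, so those at 1 µM are not independent of the choice. At 1 µM Tsx read −1.14 and −0.99 in the 2 hybridizations, with both channels well above background on both arrays. Of the 16 probes, Tsx was the only one past 1.5-fold the same way in each hybridization at 1 µM, a change found for 7.01% of 13172 probes and downward for 2.96%. This count depended on the scaling: with each array centred, Inha and Wt1 passed with Tsx, and with normexp correction, without background correction or at a 2-fold limit 0 of the 16 passed. Values at 1 µM come from 1 testis and have no replicate check.

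The size of these ratios depended on the background correction. With normexp correction and loess normalization the mean at 10 µM was −0.35 for Inha, −0.49 for Inhbb A_44_P576822, −0.35 for Amh and −0.58 for Tsx. In testis 2, Amh moved to 0.02 and Inha to −0.10. Without background correction testis 2 gave 0.06 for Amh and 0.02 for Inha. With each array centred on its median, Inha gave −0.94, −0.91 and −0.58 in testes 1 to 3 and −0.78 at 1 µM, and the mean of Sox9 A_42_P745356 rose to 0.53.

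**Figure D3:**
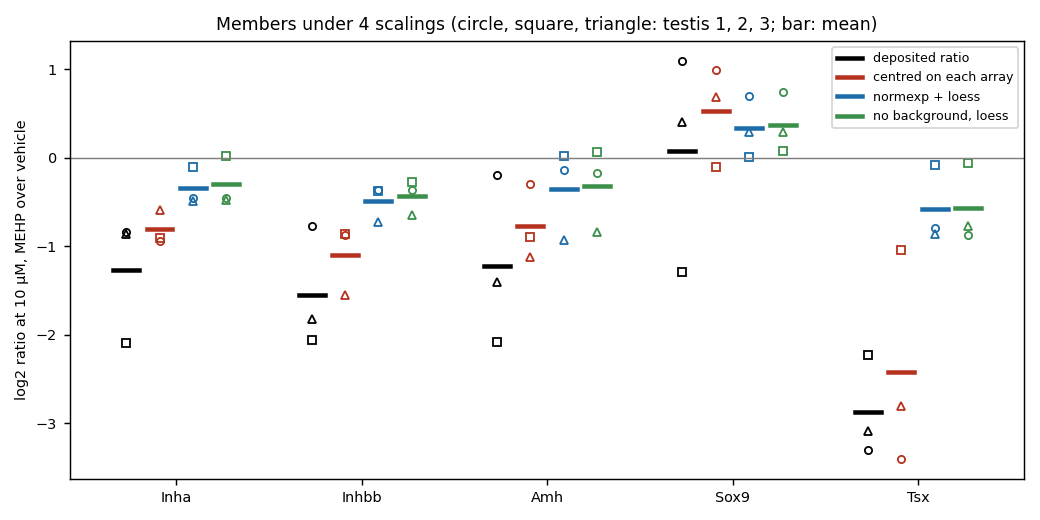
Log2 ratio at 10 µM (y axis) of 5 genes in testes 1 to 3 and their mean, under the deposited ratios, centring of each array, and loess normalization with normexp or with no background correction. The means of Inha, Inhbb, Amh and Tsx stayed below 0 under all 4, and that of Tsx ranged from −2.87 to −0.57.

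Other genes of the same pathways were read from lists. Of 15 genes of activin receptors and signalling, 3 could be tested at 10 µM and 0 passed the threshold in limma. Of 6 genes of AMH signalling, 2 could be tested and 0 passed. The receptor genes Acvr1b, Acvr2a and Acvr2b were not above background in the vehicle pool on any array, and Amhr2 was on 2 of 8. Bambi, a decoy receptor of the family, gave 0.57, −1.50 and 0.44 in testes 1 to 3.

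Among 18 further Sertoli cell genes, 7 could be tested, 2 passed the threshold and both were lower, against 1.87% of all tested probes that passed lower. Aard gave −1.44, −2.94 and −2.51 in testes 1 to 3, averaging −2.30 ± 0.77 (SD, n = 3; adjusted p = 0.0165 in limma). Rhox5 (Pem on the array), an X-linked homeobox gene known to respond to androgen in Sertoli cells, gave −2.54, −2.36 and −1.84, averaging −2.25 ± 0.37 (SD, n = 3; adjusted p = 0.0179 in limma). Among the 6 arrays at 10 µM, MEHP readings were measurable on 4 for Aard and on only 2 for Rhox5. The mean, SD and p-value of Rhox5 therefore rest mostly on dim MEHP readings. Every testis at 10 µM lay below the 1 µM testis for both genes, which gave −0.43 and −0.56 for Aard and −0.19 and −0.36 for Rhox5 in its 2 hybridizations. The calls were not stable: Aard missed the threshold under 10 of 18 alternatives and Rhox5 under 9 of 17, with adjusted p up to 0.851, although the ratios stayed below 0 under all of them.

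Among 10 genes of Sertoli cell determination, 3 were tested and 0 passed in limma. Dhh, which encodes the ligand desert hedgehog, gave −0.92, −0.79 and −2.19 in testes 1 to 3 (limma, adjusted p = 0.186) and −1.78 and −1.17 at 1 µM. The MEHP signal of Dhh was well above background on 0 of 6 arrays at 10 µM, so it entered the test through the vehicle signal alone. Without testis 2 its mean was −1.56 (limma, adjusted p = 0.0217), a setting in which 17.3% of all tested probes passed. Krt18, an epithelial keratin, gave −0.22, −3.25 and −0.79 in testes 1 to 3, and Ctsl, which encodes the protease cathepsin L, gave −0.33, −2.19 and −0.46, with testis 2 lowest for both (adjusted p = 0.147 and 0.347 in limma). The median over the 7 tested further Sertoli cell genes was −1.28, against −0.42 over all tested probes. By testis the list median was −0.62, −2.28 and −1.19 in testes 1 to 3, against 0.09, −1.13 and −0.20 over all tested probes. The gene that set the −1.28 was measurable in the vehicle pool on 4 of 8 arrays and in no MEHP channel at 10 µM. The list was chosen with earlier results known, and its difference from all tested probes was not tested. Of the markers of other cells, 1 of 6 tested Leydig cell genes passed, also lower. This was Cyp17a1, which encodes the steroidogenic enzyme CYP17 and gave −2.22, −1.60 and −2.07 in testes 1 to 3 (adjusted p = 0.0394 in limma), a call lost under 10 of 17 alternatives. Its MEHP readings at 10 µM were measurable on only 2 of 6 arrays, so these ratios too rest mostly on dim MEHP readings. Among the rest, 0 of 1 germ cell, 0 of 3 peritubular and 0 of 2 endothelial and blood cell genes passed. The medians of the Leydig, germ, peritubular and endothelial and blood lists were −1.53, −0.37, −0.37 and 0.06. Their part in the values of Inha, Inhbb and Amh was not tested.

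**Figure D4:**
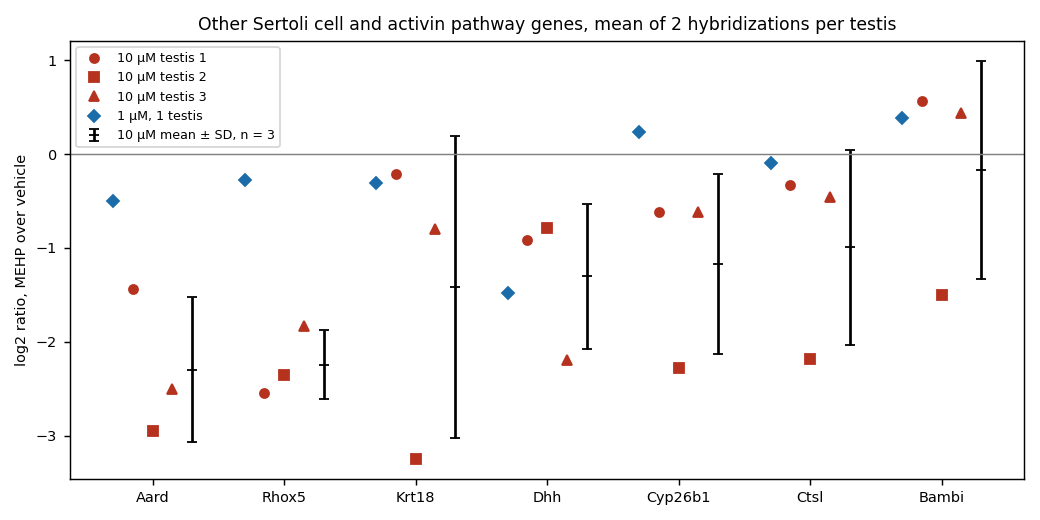
Log2 ratio of MEHP over vehicle (y axis) for 7 further genes, with each testis at 10 µM, their mean ± SD (n = 3) and the testis at 1 µM. Aard and Rhox5 lay lowest, at means of −2.30 and −2.25, and testis 2 was the lowest testis for Aard, Krt18, Cyp26b1, Ctsl and Bambi.

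The genes whose ratios followed those of Inha most closely over the 8 arrays, among 3165 candidates, were Cox5b (Pearson r = 0.974), Nup88 (r = 0.971) and Prep (r = 0.970). Those closest to Tsx were Clpb (r = 0.961), Tspan8 (r = 0.959) and Cst8 (r = 0.941). These are descriptions over arrays that share 1 control pool and are paired by testis. The genes closest to Inha had their lowest value in testis 2, at −2.12, −1.99 and −1.44. The median of all tested probes was also lowest in testis 2, at −1.13.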

How the data were processed

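Each image was extracted with Agilent Feature Extraction (version 9.1 per the labels), and the authors deposited for every spot a log10 ratio of red over green, background-subtracted and dye-normalized within the array, and the intensity of each dye, with flags for outliers and for spots well above background. These ratios were converted to log2, turned to MEHP over vehicle, and averaged over the spots of a probe without outlier and control spots, then over both hybridizations of a testis. The ratio is exactly 0 on 42.7% to 65.8% of spots per array. These include spots where both signals were replaced by surrogates and some where only the MEHP signal was. Deposited lists of the authors' own fold scores and p-values were not used.

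At 10 µM a probe entered the test if at least 3 of 6 arrays showed it well above background in either channel. How to treat probes with several spots or missing ratios was settled after the counts had been seen: most spots had to be well above background and a ratio had to be present on every array, which followed the number of probes tested in earlier work on these data. This rule gave 222 calls, and the others tried gave 142, 154 and 227; no member was called under any of them. In limma 3.58.1 (R 4.3.3), lmFit and eBayes compared the mean of the 3 testes with 0, two-sided, Benjamini-Hochberg adjusted across every tested probe, and the dose difference in a fit of 4 testes, in which the lone testis is assumed to vary like the others. Per the methods, treated testes were taken from 3 litters, as were those of the pool. The model was checked on simulated ratios: with the spread of testes 1 and 3 most changed probes passed the adjusted threshold, and with that of all 3 testes none did, so a member without a call is not shown to be unchanged. The number of arrays limits the precision.

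The members and lists were chosen with earlier results of these data known. All members are named with every probe. Genes of the activin, AMH and Sertoli lists are named with values if well above background in the vehicle pool on at least 6 of 8 arrays or if called, and for each of Inha and Tsx the 3 most similar genes. Acvr1b, Acvr2a, Acvr2b and Amhr2 are named outside this rule, for their detection, and Cyp17a1 as the 1 called marker of another cell type, all after their values were seen. Promoters and gene names come from RefSeq (GRCr8).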

Additional observations from a re-analysis of the deposited data

Results flagged for a closer look

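By the averages of the 2 hybridizations, Clu lay below 0 in all 3 testes at 10 µM and above 0 in the testis at 1 µM, which drew attention to it. The single hybridizations read −0.82 and 0.29 in testis 1, and −0.05 and 0 in testis 2, where the 0 came from surrogates in both channels. With normexp correction the mean of Clu at 10 µM was −0.01. The difference between the doses was −0.81 on the log2 scale (limma fit of the 4 testes, unadjusted p = 0.324, adjusted p = 0.998), so a difference was not detected with 1 testis at 1 µM, and −1.53 within the slide that held testis 3 and the 1 µM testis. Cyp26b1, which encodes a retinoic acid-degrading enzyme of Sertoli cells, showed the same arrangement, with −0.62, −2.28 and −0.62 in testes 1 to 3 at 10 µM and −0.10 and 0.56 in the 2 hybridizations at 1 µM. Its difference between the doses was −1.40 (limma, unadjusted p = 0.191, adjusted p = 0.998).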

How the results depend on the processing

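The number of probes called at 10 µM moved widely from 222. It was 0 with normexp correction and loess, 0 without background correction, 0 with no filter on dim probes, 0 in the first hybridizations alone, 0 with the testis as a random block over 6 arrays and 0 with slide as a block, 106 with each array centred, 230 in the repeat hybridizations alone, 223 with outlier spots kept, 87 with an intensity trend in eBayes and 6 with both channels required. In the limma fits without any call, between 491 and 2908 probes had an unadjusted p under 0.05. With 1 testis left out it ranged from 0 to 1715, the latter without testis 2. Chosen after seeing the data, centring without testis 2 gave 2720 calls, and counting a probe as measured from 1 spot with missing ratios allowed gave 142. The number of member probes called ranged from 0 to 1 with 1 testis left out and was 1 with centring and without testis 2, Inhbb A_44_P576822 in both cases. No member was called for the difference between the doses under any of 11 settings in limma, and 1 had an unadjusted p under 0.05 with centring and 0 in the others. The 1 µM count of 924 was 68 with normexp, 103 without background correction and 226 at a 2-fold limit. The 10 µM means of Inha, both Inhbb probes, Fst, Amh, Clu and Tsx kept their sign under every alternative. Sox9 A_44_P221245 turned to 0.35 with centring, 0.97 in the repeats, 0.33 without testis 2, 0.10 without testis 3 and 0.42 with centring and without testis 2. Sox9 A_42_P745356 turned to −0.13 in the repeats, −0.44 without testis 1 and −0.10 without testis 3, and Inhba to −1.30 in the first hybridizations and −0.20 without testis 1. Bambi turned to 0.30 with normexp, 0.27 without background correction, 0.29 with centring, 0.50 without testis 2 and 0.59 with centring and without testis 2. With 1 testis left out, Sox9 A_44_P221245 ranged from −0.75 to 0.33, Sox9 A_42_P745356 from −0.44 to 0.75, Inhba from −0.20 to 0.70 and Bambi from −0.53 to 0.50. The cause of these changes was not tested. No paired analysis was possible because the 1 µM group holds 1 testis, so the groups share fewer than 2 replicate numbers.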
